A study of Sus scrofa with 4 samples.

Results

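Macrophages that carry the complement component C1Q but neither CD209 nor LYVE1 were described in 4 single-cell libraries of pig (Sus scrofa) meniscus. A barcode was counted as such a cell when it had at least 200 detected genes, at least 5 UMIs (unique molecular identifiers, each standing for 1 captured transcript) of C1QA, C1QB and C1QC together, no UMI of CD209 or LYVE1, at most 1 UMI of the endothelial genes PECAM1, PLVAP and VWF, and at most 1 UMI of the mural genes ACTA2, MYH11 and RGS5. Of 27782 barcodes 666 met this rule, and they are called C1Q macrophages here. The 380 barcodes that met every other condition but had at least 1 UMI of CD209 or LYVE1 are called CD209/LYVE1 macrophages. The 26624 barcodes with at least 200 genes and under 5 C1Q UMIs are called the other barcodes.

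The libraries were made with 10x Genomics droplet chemistry, 1 for each of lateral white zone, medial white zone, lateral red zone and medial red zone. Synovium was dissected off, the zones were cut apart, and the cells were freed with pronase followed by collagenase P, per the labels' protocols. The labels name no treatment, animals, age, breed or sex, so whether the libraries share an animal is not known. All p-values below therefore measure the spread between these 4 libraries only.

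The meniscus is a fibrocartilage wedge of the knee. Its outer, red zone carries blood vessels, and its inner, white zone does not. C1q, built from the chains A, B and C, starts the classical complement pathway and is made largely by macrophages, which use it to tag dying cells and immune complexes for uptake. CD209 is a lectin that binds sugars on microbes, and LYVE1 is a hyaluronan receptor. Together they mark macrophages that sit beside vessels in many mouse and human tissues. SPP1 encodes osteopontin, a secreted phosphoprotein of bone and cartilage matrix that some tissue macrophages also make.

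C1Q macrophages were a smaller share of the white zone than of the red zone in both menisci. They numbered 56 barcodes in lateral white and 52 in medial white, against 272 in lateral red and 286 in medial red. As a share of barcodes with at least 200 genes they made up 0.759% (exact 95% binomial interval 0.574 to 0.984%) of lateral white and 0.666% (0.498 to 0.873%) of medial white, against 4.76% (4.22 to 5.34%) of lateral red and 4.19% (3.73 to 4.69%) of medial red. The intervals cover counting error only, and those of the white libraries did not overlap those of the red ones. With 2 libraries against 2 no exact permutation test can give a p below 0.333, so the difference was not tested.

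The CD209/LYVE1 macrophages were all in the red zone. Of the barcodes that met the C1Q rule with or without these genes, 0 of 56 in lateral white and 0 of 52 in medial white had a CD209 or LYVE1 UMI. The exact 95% binomial intervals reach 6.38% and 6.85%, and a floor of 3 cells stands for shares of 5.36% and 5.77%. In lateral red 37.6% (33.1 to 42.3%) of 436 barcodes had one, and in medial red 43.0% (38.6 to 47.5%) of 502. The white macrophages held no CD209 and no LYVE1 UMI at all, whereas those of lateral red held 671 CD209 and 94 LYVE1 UMIs and those of medial red 1058 and 116. At equal depth, with each macrophage thinned to 1000 UMIs, the shares were 0 of 50 and 0 of 40 in lateral and medial white, against 35.1% of 362 and 40.5% of 407 in lateral and medial red. Among the other barcodes 0.150% in lateral white, 0.103% in medial white, 3.27% in lateral red and 3.55% in medial red had such a UMI. All C1Q macrophages of the white zone are therefore set below against only those of the red zone in which CD209 and LYVE1 went undetected. Of the CD209/LYVE1 macrophages 34 of 164 in lateral red and 45 of 216 in medial red had just 1 such UMI, so the line between the kinds depends on detection.

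**Figure D1:**
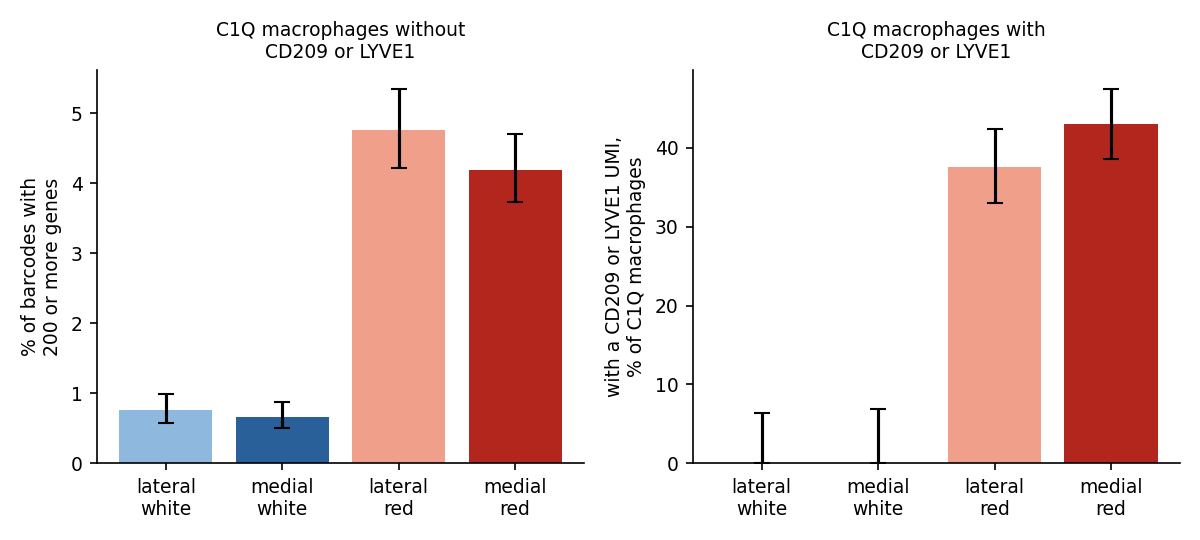
Left, C1Q macrophages without CD209 or LYVE1 as a percentage of barcodes with at least 200 genes in each library. Right, the percentage of barcodes meeting the C1Q rule that had a CD209 or LYVE1 UMI. Bars give the share and lines the exact 95% binomial interval, which covers counting error only. The white libraries lie at 0.759% and 0.666% on the left and at 0 on the right, below the red libraries in both panels.

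The label of macrophage was checked against 13 macrophage and monocyte markers other than C1Q. All 13 were detected in the C1Q macrophages of every library. Levels are given as CPM, the UMIs of a gene scaled to a common total per library. The summed level of the 13 was 9294 CPM in lateral white, 10041 in medial white, 10069 in lateral red and 8930 in medial red, against 80.4, 63.5, 444 and 358 CPM in the other barcodes of the same libraries. TYROBP, an adaptor for activating receptors of myeloid cells, was found in 46 of 56, 39 of 52, 195 of 272 and 240 of 286 C1Q macrophages of these libraries and in 0.0645 to 3.69% of the other barcodes. SPP1, although given as a marker of these cells, did not set them apart within a library, as its values below show. Genes that stood highest over the other barcodes, beside those of the rule, were C4BPA, a chain of the complement inhibitor C4b-binding protein, the chemokines CCL8, CXCL8 and CCL4, the cathepsin CTSS, and FCER1G, the shared signalling chain of Fc receptors. Since the cells were chosen by C1Q, these levels are a description with no test.

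Their depth was similar to that of the other barcodes. The median was 1927 UMIs in lateral white, 1364 in medial white, 1357 in lateral red and 1283.5 in medial red, against 1495, 1617.5, 1474 and 1505 UMIs in the other barcodes. Summed over cells, the tests rest on 112334, 96603, 400058 and 413191 UMIs of C1Q macrophages, out of 9666319 to 14902274 UMIs in a library. The median C1Q count was 21.5, 19.5, 24 and 21.5 UMIs, far from the threshold. At the edge of the rule 3, 3, 11 and 21 cells of these libraries had 5 or 6 C1Q UMIs. Just outside it, 41 red zone barcodes with 3 or 4 C1Q UMIs had a summed level of 5 macrophage genes of 5679 CPM, against 5095 CPM in the 32 red zone cells just inside and 6851 CPM in the 526 with 7 or more. Between 10 and 20 barcode sequences were shared by any pair of libraries, and none of them was a C1Q macrophage in both.

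Many markers of other lineages were at or near 0, and others were not. The neutrophil genes CSF3R and S100A12, the B cell genes CD79B and MS4A1, the T cell gene CD3G and the osteoclast genes CALCR and ATP6V0D2 had 0 UMIs in the C1Q macrophages of all 4 libraries. Exceptions included CD2, MS4A2, NKG7 and JCHAIN, the last with 252 UMIs in lateral red and 0 or 1 elsewhere. Of 5 B or plasma cell markers 1 was detected in lateral white (9 UMIs) and 1 in medial white (14 UMIs). In lateral and medial red 3 and 2 were detected, with 287 and 33 UMIs. Their sums were 80.1, 145, 717 and 79.9 CPM in lateral white, medial white, lateral red and medial red. The other barcodes had 70.5, 72.3, 872 and 249 CPM. The cytotoxic cell gene NKG7 had 13, 23, 113 and 83 UMIs in lateral white, medial white, lateral red and medial red. The 9 T or NK cell markers summed to 160, 269, 442 and 315 CPM, against 0.203 to 60.0 CPM in the other barcodes. The osteoclast marker ACP5 had 197, 52, 283 and 105 UMIs in these libraries. With it the 9 osteoclast markers summed to 1825, 631, 795 and 344 CPM, against 75.1 to 95.8 CPM in the other barcodes. The dendritic cell marker CCR7 had 58 and 55 UMIs in lateral and medial red and 0 in lateral and medial white. The receptor ERBB3, taken as a Schwann cell marker, had 39, 55, 119 and 136 UMIs in these libraries, while the other 4 Schwann cell markers had 0. Its level was 347, 569, 297 and 329 CPM, against 671, 802, 305 and 403 CPM in the other barcodes. Of the 9 endothelial markers not used in the rule EGFL7 had 14, 7, 64 and 65 UMIs, and the other 8 had 0 to 3 UMIs in each library. RNA of matrix-producing cells was also present. The 9 fibroblast markers summed to 7816 CPM in lateral white and 33871 CPM in medial white, against 8091 CPM in lateral red and 10888 CPM in medial red, and the 11 chondrocyte markers to 1629 and 807 CPM in lateral and medial white, against 115 and 235 CPM in lateral and medial red. A few cells carried most of it: the median share of UMIs from 26 matrix genes was 0.0665, 0.167, 0.0697 and 0.0446% in lateral white, medial white, lateral red and medial red, while 7, 8, 20 and 30 cells reached 1% or more. Without those cells the chondrocyte markers summed to 123 and 15.9 CPM in lateral and medial white, against 28.3 and 11.9 CPM in lateral and medial red. The comparisons of zones, of menisci and of kinds of macrophage were repeated without these cells, whereas the interaction, the clustering and the shares of cells were not.

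Within the C1Q macrophages, clustering without the genes of the rule gave 6 groups of 64 to 164 cells, described by their leading genes with no test. The largest was led by heat shock genes, with HSPA6 at 5228 CPM against 64.5 to 1486 CPM in the other groups. Another, of 155 cells, was led by the chemokines CCL2 and CCL8, with CCL8 at 7069 CPM. The next, of 102 cells, had JCHAIN, the joining chain of secreted antibodies, at a summed level of 1785 CPM. Of its cells 53 were of lateral red, which held nearly all JCHAIN UMIs, and 40 of medial red. The fourth, of 94 cells, was led by TIMP1, an inhibitor of matrix metalloproteinases, at 2624 CPM, by AMPD3 and by CCR7, and had the highest SLA-DQB1 level of the 6 at 6989 CPM. Its median C1Q count was 11.5 UMIs, its summed level of 7 dendritic cell markers 523 CPM, against 41.8 to 156 CPM in the other groups, and FOLR2 was at 0. The fifth, of 87 cells, was led by SPP1 at 5807 CPM, CCL4 at 6197 CPM and CXCL8 at 5111 CPM. The sixth, of 64 cells, was led by collagen genes, with COL3A1 at 17519 CPM and a median of 5.15% matrix UMIs. Each group held cells of both zones, in unequal parts. The fifth group, led by SPP1, held 37 of 56 C1Q macrophages of lateral white and 35 of 52 of medial white, against 10 of 272 of lateral red and 5 of 286 of medial red. Most red zone cells were in the first 4 groups, with 85 of lateral red in the first and 96 of medial red in the second. The groups' leading genes differ between zones, so these counts were not tested, and the zone differences below are between cells that lie mostly in different groups.

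White zone C1Q macrophages had more of the transcripts for osteopontin, for GPNMB and for inflammatory chemokines, and fewer of those for heat shock proteins, MHC class II and the receptors CCR7 and CXCR4, than red zone ones. Counts were summed over the C1Q macrophages of each library and compared with edgeR's quasi-likelihood test with the meniscus as a second term. A call means a Benjamini-Hochberg adjusted p below 0.05 over all genes tested. Of 3506 genes tested 279 were called (7.96%), 145 of them higher in the white zone (4.14%) and 134 lower (3.82%), against 88 higher and 53 lower when scaled by library totals alone. DESeq2 on the same sums called 64, all of them among the 279. Fold changes are on the log2 scale, white minus red, with their standard error (SE), and n is 2 libraries in each zone. One degree of freedom was left for the spread, which edgeR pools over genes. Of all genes tested, 48.7% had no overlap between the zones, so a lack of overlap is given below only as a description.

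SPP1 lies at chr8:131077786-131085334 of the pig genome Sscrofa11.1. In C1Q macrophages it reached 8199 CPM in lateral white and 3302 CPM in medial white, against 475 CPM in lateral red and 276 CPM in medial red. Both white libraries were far above both red ones, with a log2 fold change of 3.75 (SE 0.39) and an edgeR adjusted p of 9.33e-17. In all 13 alternatives the call held, with log2 fold changes between 3.00 and 4.36. The other barcodes of the same libraries followed the same order, with 5420 CPM in lateral white and 2553 CPM in medial white, against 350 CPM in lateral red and 236 CPM in medial red. Tested as an interaction of kind of cell and zone, the zone difference of SPP1 in C1Q macrophages minus that in the other barcodes was -0.60 (SE 0.31) with an edgeR adjusted p of 0.377, and 0.15 under scaling by library totals, with no call. This interaction was called for 5.47% of 11680 genes, 2.53% higher and 2.95% lower. Its median over all genes was -0.30, and 0.43 under library totals, which called 710 higher and 61 lower. What part of the SPP1 in a macrophage barcode is free RNA from other cells was not tested.

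Cell by cell, SPP1 was found in 80.4% of C1Q macrophages of lateral white and 76.9% of medial white, against 18.0% of lateral red and 9.44% of medial red. The median cell had 8.5 and 2.5 UMIs in lateral and medial white, against 0 in both red libraries. Among the other barcodes 73.7 and 63.6% of lateral and medial white had one, against 10.8 and 7.25% of lateral and medial red. The share in macrophages was thus only somewhat above this background in each library. The UMIs were unevenly spread, up to 116 in a lateral white cell.

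GPNMB (chr9:92037428-92071501), a glycoprotein of lysosomes and the cell surface that phagocytes make, was scarce outside macrophages. Its level was 1300 CPM in lateral white and 1439 CPM in medial white, against 397 CPM in lateral red and 213 CPM in medial red. The zones did not overlap, and the log2 fold change was 2.12 (SE 0.31; edgeR adjusted p = 9.01e-09), a call kept in all 13 alternatives. In the other barcodes it stood at 3.46, 2.43, 49.2 and 45.9 CPM in lateral white, medial white, lateral red and medial red, thus lower in the white zone. Other members of a 10-gene list of lipid-handling macrophage genes moved as well. Of 8 tested, 5 rose and 1 fell, with a median log2 fold change of 1.41 against 0.01 over all genes tested. The 5 that rose were SPP1, GPNMB, the tetraspanin CD9 (log2 fold change 1.80), the galectin LGALS3 (1.47) and the lysosomal protease CTSD (1.34). PLA2G7, which breaks down platelet-activating factor, fell by 1.63, and APOE, the main lipid carrier of macrophages, was not called at -0.20. The PLA2G7 call was lost in 3 of 13 alternatives, that of CTSD in 2 and that of LGALS3 without the medial red library. CD9 was more abundant in the other barcodes than in the macrophages, at 1155 to 2328 CPM against 244 to 1228 CPM. APOE had 329 and 269 CPM in macrophages of lateral and medial white, against 31.5 and 16.8 CPM in the other barcodes. In lateral and medial red the macrophages, at 305 and 339 CPM, lay below the other barcodes, at 634 and 523 CPM. TREM2, a lipid receptor of macrophages, had a UMI in 5, 1, 3 and 3 cells of lateral white, medial white, lateral red and medial red, too few to be tested.

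**Figure D2:**
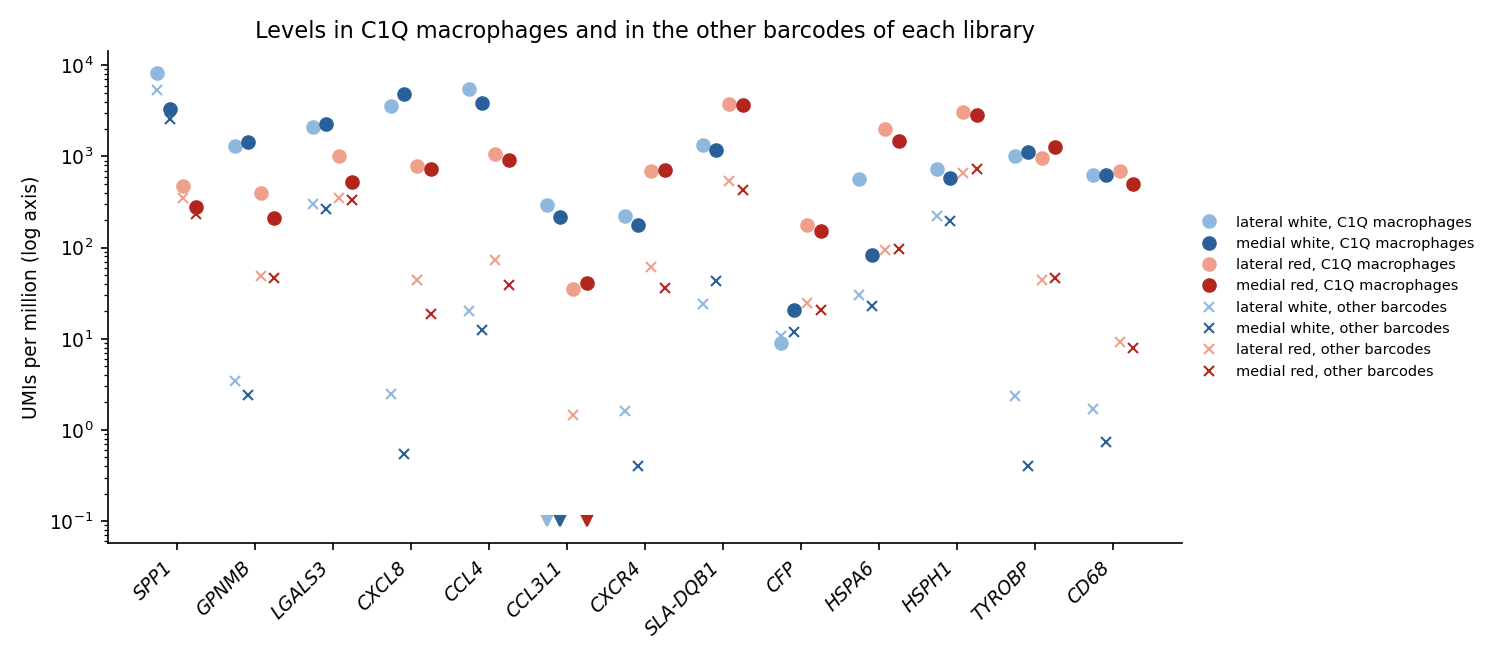
Level of 13 genes in CPM (log axis) in the C1Q macrophages (dots) and the other barcodes (crosses) of each library, with white libraries to the left of red ones within each gene. Triangles at the lower edge stand for values below 0.1. SPP1 is nearly as high in the other barcodes as in macrophages, while GPNMB, CXCL8 and CCL4 are high in white zone macrophages and low in the other barcodes.

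Transcripts of secreted inflammatory mediators were also higher in white zone C1Q macrophages. CXCL8 (chr8:69932646-69935861), a chemokine that draws neutrophils, stood at 3588 CPM in lateral white and 4782 CPM in medial white, against 785 CPM in lateral red and 736 CPM in medial red. Its log2 fold change was 2.35 (SE 0.35; edgeR adjusted p = 1.52e-08). CCL4, a chemokine for monocytes and T cells, had 5510 and 3892 CPM in lateral and medial white, against 1070 and 912 CPM in lateral and medial red, a log2 fold change of 2.13 (SE 0.36; edgeR adjusted p = 4.36e-07). For both genes each white library was above each red one, and the other barcodes held 0.541 to 44.6 CPM of CXCL8 and 12.4 to 72.8 CPM of CCL4. Of 15 NF-κB-driven inflammatory genes in the files 14 were tested, of which 5 rose and 0 fell, with a median of 0.50. These were CXCL8, IL1A, TNF, CXCL2 and TNFAIP6. Leaving out 1 library or using DESeq2 ended the call of IL1A in 2 alternatives, TNF in 3, CXCL2 in 1 and, with others, TNFAIP6 in 9. IL1A, which encodes the cytokine interleukin 1 alpha, had 285 and 155 CPM in lateral and medial white, against 55.0 and 53.2 CPM in lateral and medial red. TNF was rare, with a UMI in 7 and 5 cells of lateral and medial white, against 3 and 6 cells of lateral and medial red.

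The list of chemokines and receptors held calls in both directions, and chemokines were among both. Of 10 tested 3 rose (CCL3L1, CCL4 and CCL8) and 4 fell, among them CXCR4, CXCL9 and CXCL14. The CXCL14 call was lost in 4 of 10 alternatives. CCL8, another monocyte chemokine, had 8724 and 5486 CPM in lateral and medial white, against 1650 and 2960 CPM in lateral and medial red (log2 fold change 1.55, SE 0.39; edgeR adjusted p = 0.00209). This call was lost under DESeq2, under scaling by library totals alone and without the lateral red library. CXCR4, the receptor for CXCL12, which holds leukocytes in tissues, had 223 and 176 CPM in lateral and medial white, against 692 and 716 CPM in lateral and medial red (log2 fold change -1.91, SE 0.33; edgeR adjusted p = 1.42e-06). CCR7 (chr12:21857286-21869211), a receptor that guides cells into lymphatics, had no UMI among 208937 in white macrophages, against 113 among 813249 in red ones, and was at least 9.68-fold lower in the white zone by a floor of 3 UMIs over its libraries together. CCR7 also marks migrating dendritic cells. The 7 dendritic cell markers in the files, CCR7 among them, summed to 0 and 82.8 CPM in lateral and medial white, against 212 and 208 CPM in lateral and medial red. In lateral and medial white 0 and 3 of them were detected, with 0 and 8 UMIs. In lateral and medial red 5 and 6 were detected, with 85 and 86 UMIs, of which CCR7 held 58 and 55. The markers FLT3, XCR1 and FCER1A had 0 or 1 UMI in each library. The part of dendritic cells in these values was not tested. In the red zone CCR7 was carried by 30 of 272 and 35 of 286 cells in lateral and medial red. CXCL9 was also at 0 in the white zone, and in the red zone a single cell held 57.1% of its UMIs in lateral red and another 50% in medial red. A CXCL9 UMI was found in 1.47 and 2.45% of C1Q macrophages of lateral and medial red, against 2.53 and 1.35% of the other barcodes.

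Expressed as cells with a UMI after thinning to 1000 UMIs, the same genes showed how broad the difference was. CXCL8 was found in 56.0 and 65.0% of C1Q macrophages of lateral and medial white, against 25.7 and 27.4% of lateral and medial red. CCL4 was found in 66.0 and 72.5% of lateral and medial white, against 26.6 and 26.0% of lateral and medial red. Most white cells thus had these transcripts at this depth. GPNMB, without thinning, was found in 71.4 and 48.1% of lateral and medial white, against 34.2 and 19.2% of lateral and medial red. Without thinning, 0.0774 to 1.65% of the other barcodes had a UMI of CXCL8, 1.24 to 2.83% of CCL4 and 0.387 to 6.54% of GPNMB. The thinned shares rest on 50, 40, 218 and 223 macrophages of lateral white, medial white, lateral red and medial red.

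**Figure D3:**
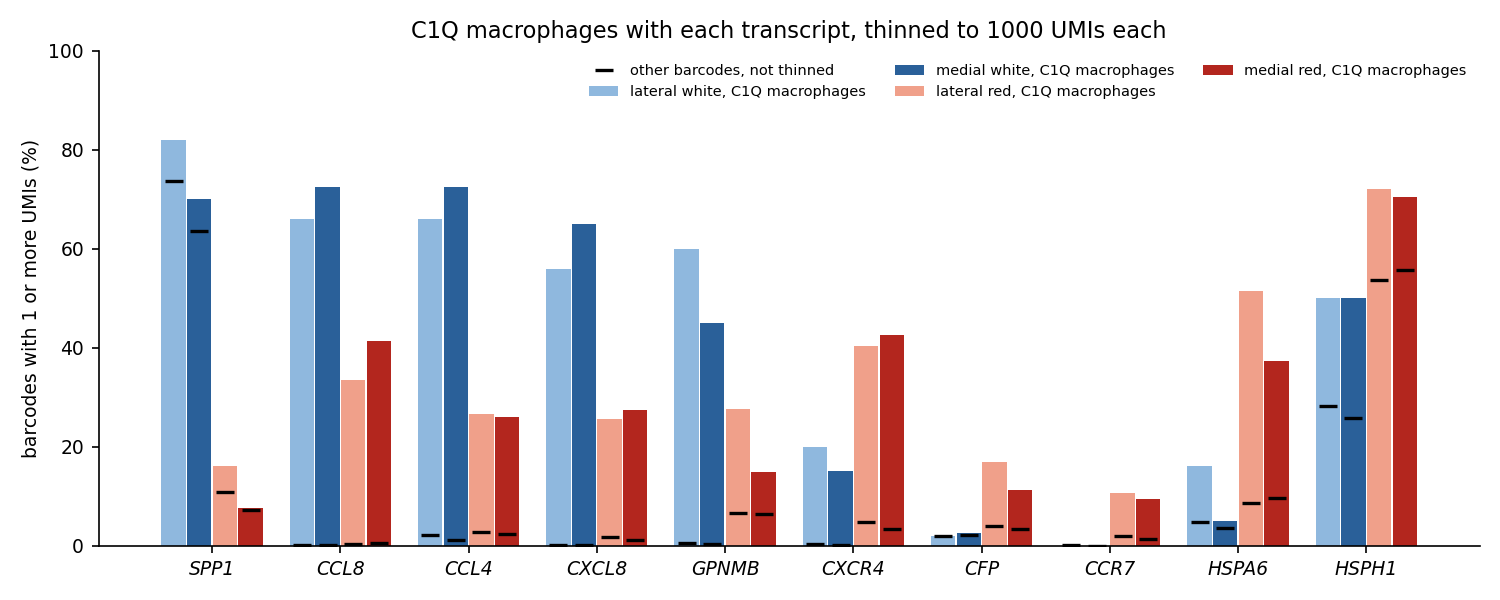
Percentage of C1Q macrophages with at least 1 UMI of each gene after thinning every cell to 1000 UMIs (bars), in each library, with white left of red. Black marks give the percentage among the other barcodes of the same library without thinning. SPP1, CCL8, CCL4, CXCL8 and GPNMB are found in more white than red cells, and CXCR4, CFP, CCR7, HSPA6 and HSPH1 in fewer, while only SPP1 and HSPH1 are common in the other barcodes.

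Heat shock genes were lower in white zone C1Q macrophages. Of 8 chaperone genes tested 0 rose and 6 fell, with a median of -1.82. HSPA6 (chr4:88970592-88973109), a stress-induced member of the HSP70 family, had 570 and 82.8 CPM in lateral and medial white, against 2012 and 1493 CPM in lateral and medial red (log2 fold change -2.74, SE 0.37; edgeR adjusted p = 1.75e-10). It was -1.71 without medial white and -4.53 without lateral white. HSPH1, which reloads HSP70 with nucleotide, had 721 and 580 CPM in lateral and medial white, against 3085 and 2861 CPM in lateral and medial red (-2.29, SE 0.36; edgeR adjusted p = 4.43e-08). The white libraries lay below the red ones for both genes. HSPD1, DNAJB1, HSP90AA1 and HSPE1 fell by 1.99, 1.87, 1.77 and 1.51, and none of these 6 calls was lost in any of the 13 alternatives. HSPH1 was also lower in the other barcodes of the white zone, with 221 and 194 CPM in lateral and medial white, against 666 and 720 CPM in lateral and medial red. The fall in macrophages exceeded that in the other barcodes by -2.36 for HSPD1, -2.09 for HSPE1 and -1.94 for HSP90AA1, each called by the edgeR interaction and in all its alternatives. For HSPA6 (-1.43) and HSPH1 (-1.21) this excess was called too, but the call was lost in 5 of 8 alternatives. Of 10 immediate-early genes, which respond within minutes to stimuli, 0 rose and 4 fell. FOS, which fell, had 205 and 176 CPM in lateral and medial white, against 527 and 598 CPM in lateral and medial red. The 12 such genes in the files summed to 1816, 1594, 2990 and 2502 CPM in lateral white, medial white, lateral red and medial red. The other barcodes had more in each library and were also lower in the white zone, at 2374, 2446, 4839 and 4980 CPM.

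MHC class II genes, which present peptides to helper T cells, were lower in the white zone. Of 6 tested 0 rose and 4 fell (SLA-DQB1, SLA-DOA, CIITA and CD74), with a median of -1.43. SLA-DQB1, the beta chain of the pig DQ molecule, had 1335 and 1180 CPM in lateral and medial white, against 3732 and 3681 CPM in lateral and medial red (log2 fold change -1.66, SE 0.35; edgeR adjusted p = 0.000162). CD74, the invariant chain that escorts class II molecules, had 4620 and 3633 CPM in lateral and medial white, against 8279 and 9344 CPM in lateral and medial red (-1.20, SE 0.39; edgeR adjusted p = 0.0339). Neither gene overlapped between the zones, and the CD74 call was lost in 3 of 13 alternatives, under library totals and without medial white or medial red. CIITA, the factor that switches class II genes on, had 17.8 and 10.4 CPM in lateral and medial white, against 60.0 and 62.9 CPM in lateral and medial red, and its call was lost in 7 of 10 alternatives, as was that of SLA-DOA in 8 of 13.

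Other genes lower in the white zone included CFP, or properdin, which stabilises the alternative complement convertase. It had 8.90 and 20.7 CPM in lateral and medial white, against 177 and 152 CPM in lateral and medial red (-3.57, SE 0.59; edgeR adjusted p = 2.92e-07). AMPD3, an AMP deaminase, had 8.90 and 0 CPM in lateral and medial white, against 150 and 155 CPM in lateral and medial red. In both cases the white libraries were near the level of a few UMIs, and DESeq2 made neither call. C4BPA stayed abundant in both zones but was lower in the white zone, at 4585 and 3043 CPM in lateral and medial white, against 12553 and 8967 CPM in lateral and medial red (-1.60, SE 0.40; edgeR adjusted p = 0.00209). Further named genes that fell were SCARB1, the receptor for high-density lipoprotein (-3.05), MS4A2, the beta chain of the IgE receptor (-3.01), the adaptor SLA (-3.01), FGL2 (-2.69), HSP70.2 (-2.69), TMEM176A (-2.64) and the growth factor PDGFB (-2.26). Of these, DESeq2 did not call SCARB1, MS4A2, TMEM176A and PDGFB. FGL2 had 62.3 and 41.4 CPM in lateral and medial white, against 340 and 295 CPM in lateral and medial red. The other barcodes also had less in the white zone, with 6.18 and 7.43 CPM, against 289 and 282 CPM in the red zone. For FGL2 the zone difference in C1Q macrophages minus that in the other barcodes was 2.05 (edgeR adjusted p = 0.00889). MS4A2 is a mast cell gene, and of the other mast cell markers HDC had 0 UMIs in the C1Q macrophages of all 4 libraries and KIT had 1 in all.

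Named genes that rose, beside those above, were ITGB8, an integrin chain that releases TGF-beta (log2 fold change 3.89), ALOX5, the 5-lipoxygenase of leukotriene synthesis (3.59), SMPDL3A (3.19), CCL3L1 (2.63), AHRR, a repressor of the aryl hydrocarbon receptor (2.33), the calcium-binding protein S100A4 (2.27), CPNE3 (2.22) and ARNT, a partner of the aryl hydrocarbon receptor (2.17). S100A4 had 1602 and 2195 CPM in lateral and medial white, against 412 and 319 CPM in lateral and medial red. ITGB8 and ALOX5 were sparse, with 10.0 CPM or less in either red library, and both calls were lost without either red library. The AHRR call was lost in 5 of 13 alternatives. That of CPNE3 was lost under DESeq2 and without the medial white library, and its log2 fold change was 1.17 to 2.91 over 12 alternatives.

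General macrophage genes were for the most part not called. TYROBP had 1015 and 1108 CPM in lateral and medial white, against 950 and 1278 CPM in lateral and medial red, and CD68, a lysosomal glycoprotein, had 632 and 632 CPM in lateral and medial white, against 685 and 503 CPM in lateral and medial red. The zones overlapped for both, with log2 fold changes of -0.16 (SE 0.31) and 0.00 (SE 0.30) and no call. Of 13 macrophage and monocyte markers 0 rose and 1, CSF1R, fell, a call lost in 9 of 13 alternatives. Of 11 genes typical of resident macrophages 0 rose and 2 fell, with a median of -0.59. The 2 were the mannose receptor MRC1 (-1.10, SE 0.31; edgeR adjusted p = 0.00941), lost in 5 of 13 alternatives, and F13A1, coagulation factor XIII A (-1.11), lost in 9. The haemoglobin scavenger CD163 had 463 and 290 CPM in lateral and medial white, against 752 and 523 CPM in lateral and medial red (-0.86, SE 0.31; edgeR adjusted p = 0.0635). STAB1 (-0.16), SELENOP (-0.59) and HMOX1 (0.11), the haem oxygenase, were not called. FOLR2, the folate receptor beta of resident macrophages, had 365 and 259 CPM in lateral and medial white, against 192 and 167 CPM in lateral and medial red, with no call, but stood at 498 and 568 CPM in the other barcodes of lateral and medial white, thus above the macrophages.

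Calls in further function lists are given beside the shares over all genes tested, 4.14% higher and 3.82% lower. Furthest above these shares were matrix proteases and inhibitors, growth factors, mitochondrially encoded genes, hypoxia and glycolysis, complement and phagocytic receptors, each on few genes. Of 6 complement genes 0 rose and 1 fell (CFP), and of 6 phagocytic receptor genes 0 rose and 1 fell (SCARB1). Of 18 lysosomal genes 1 rose and 1 fell, of 13 interferon-induced genes 0 rose and 1 fell, of 8 genes of haem and iron handling 1 rose and 0 fell, of 12 of hypoxia and glycolysis 2 rose and 0 fell, and of 6 of cholesterol and lipid handling 0 rose and 0 fell. Of 56 ribosomal protein genes none was called. Of 12 mitochondrially encoded genes 3 rose (ND1, ND3 and ND5). Of 8 growth factor genes 0 rose and 2 fell (HBEGF and PDGFB), and of 6 matrix proteases and inhibitors TIMP3 rose while TIMP1 and PLAU fell. The calls of PLAU, ND5 and HBEGF were lost in 7, 9 and 4 of 13 alternatives and that of TIMP3 in 3 of 12.

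All 5 chondrocyte and all 5 fibrochondrocyte genes tested rose in the white zone, COL2A1 with 801 and 72.5 CPM in lateral and medial white, against 5.00 and 46.0 CPM in lateral and medial red. The other barcodes held 6001 and 6776 CPM of COL2A1 in lateral and medial white, against 348 and 66.6 CPM in lateral and medial red, and its call in macrophages was lost under DESeq2 and without lateral white. Without macrophage barcodes of 1% or more matrix UMIs the chondrocyte markers fell to the sums given above. Without those barcodes 172 genes were called, 152 of them among the 279, and SPP1, GPNMB, CXCL8, CCL4, CXCR4 and the 6 heat shock genes were still called.

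**Figure D4:**
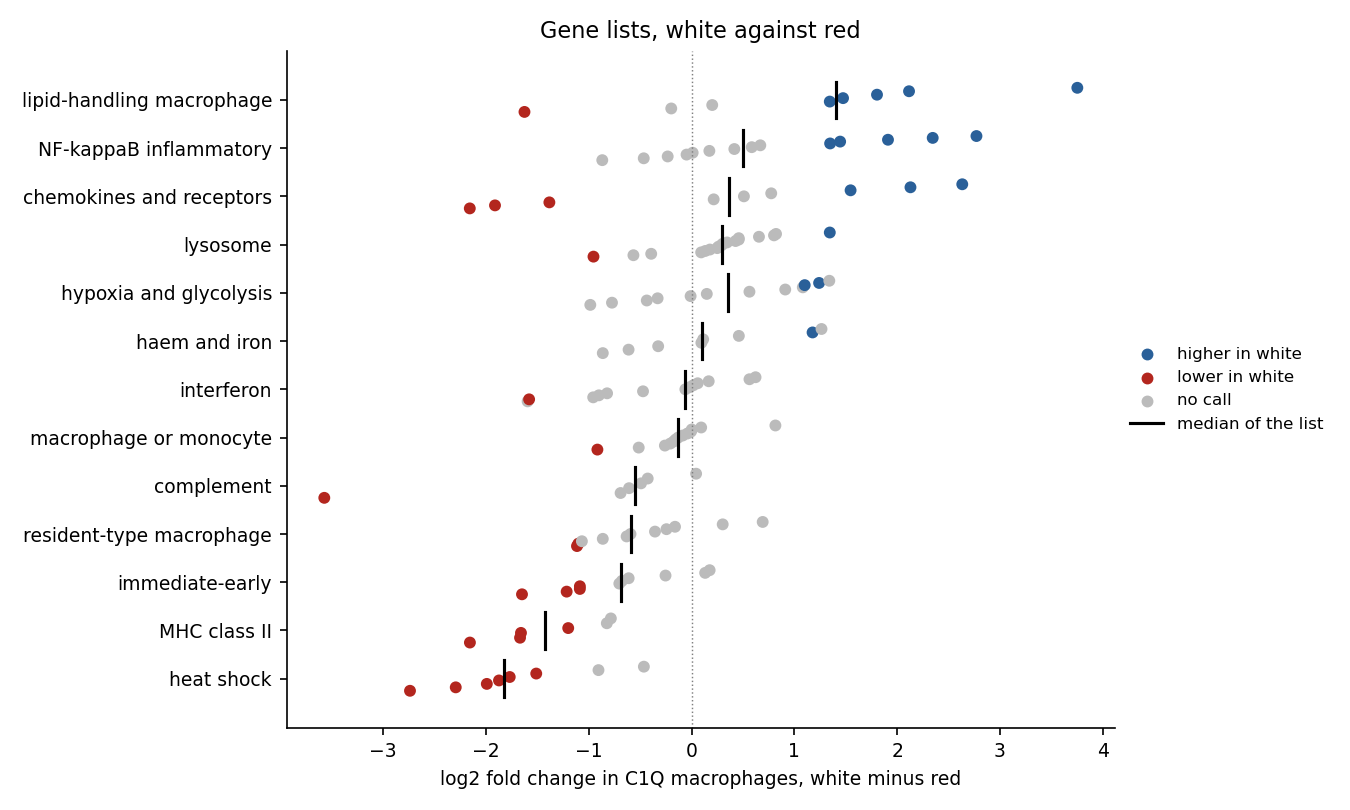
Log2 fold change between zones (white minus red) of each tested gene in 13 gene lists, in C1Q macrophages. Blue (higher in white) and red (lower in white) dots were called at an adjusted p below 0.05, grey dots were not, and the black bar is the list's median. CXCL9, at 0 in the white zone, is not drawn. The lipid-handling list lies furthest to the right, with a median of 1.41, and the heat shock list furthest to the left, with a median of -1.82.

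Between the menisci few genes were called. With the zone as second term, edgeR called 16 of 3506 genes (0.456%), 8 higher (0.228%) and 8 lower (0.228%) in the medial meniscus, and 203 had an unadjusted p below 0.05. DESeq2 called 3, and edgeR called 0 to 5 when 1 library was left out. Only 3 passed the rule for named genes, all lower in the medial meniscus, and their calls were lost in 8 or 9 of 13 alternatives. ACP5 (chr2:70206159-70209855), the tartrate-resistant acid phosphatase of osteoclasts and macrophages, had 538 CPM in medial white and 254 CPM in medial red, against 1754 CPM in lateral white and 707 CPM in lateral red (log2 fold change -1.57, SE 0.31; edgeR adjusted p = 0.000386). Within each zone the medial library was below the lateral one, yet medial white and lateral red lay close together. Between zones ACP5 was called higher in the white zone (1.11, SE 0.31; edgeR adjusted p = 0.00787), a call lost in 6 of 13 alternatives. RARRES1 had 176 CPM in medial white and 46.0 CPM in medial red, against 383 CPM in lateral white and 165 CPM in lateral red (-1.49, SE 0.34; edgeR adjusted p = 0.00383). RGS2, a brake on G protein signalling, had 82.8 CPM in medial white and 116 CPM in medial red, against 196 CPM in lateral white and 295 CPM in lateral red (-1.28, SE 0.33; edgeR adjusted p = 0.0291). Because so few passed, the genes with the lowest p that met the other conditions of the rule are given as values with no call. They were TNFAIP8 (-1.35), with an edgeR adjusted p of 0.0807, and CXCL10 (-1.22), DHX36 (1.19), TBCA (0.98), BABAM2 (1.35), MS4A2 (0.97) and VASP (0.97), with edgeR adjusted p of 0.158 to 0.413. Of the genes given whatever their result, only ACP5 was called, and COL1A1 (1.23), COL2A1 (-1.28) and SPP1 (-1.05) followed with edgeR adjusted p of 0.149, 0.217 and 0.262.

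In the red zone the C1Q macrophages without CD209 or LYVE1 could be set against the CD209/LYVE1 macrophages of the same libraries. They had less of 9 of 11 genes typical of resident macrophages and of 7 of 15 interferon-induced genes, and more SPP1, CXCL8, CCL8, CCR7, TIMP1 and, of 6 MHC class II genes, SLA-DQB1 and CD74. Counts were summed per library and kind, and edgeR's quasi-likelihood test was run with the library as a block (n = 2 libraries, 1 residual degree of freedom). Of 4399 genes 335 were called (7.62%), 157 higher (3.57%) and 178 lower (4.05%), and 940 had an unadjusted p below 0.05. DESeq2 called 26 and edgeR without the block 39, all of them among the 335. CD209 and LYVE1 themselves set the groups apart and are not results.

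The largest fall among the named genes was that of HSD11B1, the enzyme that makes active cortisol from cortisone (chr9:133231451-133278396). It had 42.5 CPM in lateral red and 24.2 CPM in medial red, against 335 and 314 CPM in the CD209/LYVE1 macrophages of lateral and medial red (log2 fold change -3.28, SE 0.25; edgeR adjusted p = 1.26e-09). FOLR2 (chr9:6785308-6790466) had 192 and 167 CPM in lateral and medial red, against 813 and 708 CPM in the CD209/LYVE1 macrophages (-2.08, SE 0.16; edgeR adjusted p = 1.26e-09). For both genes the kinds did not overlap, and both calls held in all 9 alternatives. In C1Q macrophages FOLR2 was at the background, with a UMI in 17.6 and 19.2% of cells in lateral and medial red, against 19.1 and 19.1% of the other barcodes.

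Of 11 genes typical of resident macrophages 0 were higher and 9 lower than in CD209/LYVE1 macrophages, with a median of -0.74 against 0.01 over all genes tested. Beside FOLR2 these were F13A1 (-1.16), MAF, a transcription factor of resident macrophages (-1.43), VSIG4, a complement receptor (-0.90), TIMD4, a receptor for dying cells, CD163 (-0.70), SELENOP (-0.66), STAB1 (-0.65) and MRC1 (-0.50). CD163 had 752 and 523 CPM in lateral and medial red, against 1223 and 851 CPM in CD209/LYVE1 macrophages. The other barcodes of these libraries had 9.33 and 3.63 CPM of CD163, well below both kinds. DESeq2 called FOLR2 alone among the 9, and without the block FOLR2, F13A1 and MAF were called. Further named genes that were lower were CALML4 (-2.05), MAN1A1 (-1.69), TCN2, the vitamin B12 carrier (-1.65), the chemokine CCL14 (-1.61), DHRS7 (-1.53), PDGFC (-1.51), PEPD (-1.48), CXCL10 (-1.48) and PLAC9 (-1.47).

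Interferon-induced genes were lower too. Of 15 tested 0 were higher and 7 lower, with a median of -0.78. MX1, an antiviral GTPase, had 192 and 126 CPM in lateral and medial red, against 442 and 306 CPM in CD209/LYVE1 macrophages (-1.23, SE 0.18; edgeR adjusted p = 3.34e-05). IFIT1 and OAS2 had log2 fold changes of -1.15 and -1.02, both called, and all 15 genes had fold changes below 0. MX1, IFIT1 and OAS2 were called neither by DESeq2 nor without the block. Their levels in the other barcodes of these libraries were 76.6 to 179.6 CPM, near those of the C1Q macrophages.

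SPP1 was higher in the cells without CD209 or LYVE1, at 475 and 276 CPM in lateral and medial red, against 158 and 74.3 CPM in CD209/LYVE1 macrophages (1.71, SE 0.19; edgeR adjusted p = 1.32e-06). The other barcodes of these libraries had 350 and 236 CPM, so the CD209/LYVE1 macrophages lay below them and the C1Q macrophages slightly above. CXCL8 had 785 and 736 CPM in lateral and medial red, against 277 and 300 CPM in CD209/LYVE1 macrophages (1.40, SE 0.15; edgeR adjusted p = 6.65e-07). CCR7 had 145 and 133 CPM, against 36.0 and 48.6 CPM in CD209/LYVE1 macrophages (1.69, SE 0.31; edgeR adjusted p = 0.000581), and TIMP1 457 and 956 CPM, against 122 and 306 CPM in CD209/LYVE1 macrophages (1.75, SE 0.16; edgeR adjusted p = 5.10e-08). In all 4 genes each library showed the same direction, though SPP1 and TIMP1 were not called without the block and CCR7 not by DESeq2. The dendritic cell markers summed to 212 and 208 CPM in lateral and medial red, against 122 and 134 CPM in CD209/LYVE1 macrophages. Within the C1Q macrophages TIMP1 and CCR7 lay mostly in the fourth group described above, which had the highest dendritic marker sum. Over the 4 libraries that group of 94 cells held 61 of the 113 CCR7 UMIs, and its TIMP1 level was 2624 CPM, against 6.96 to 495 CPM in the other groups. The CD209/LYVE1 macrophages were not clustered, and what part of the differences in TIMP1 and CCR7 rests on that group was not tested. TIMP1 was also abundant in the other barcodes, at 822 and 907 CPM in lateral and medial red.

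Of 6 MHC class II genes 2 were higher and 0 lower, SLA-DQB1 with 3732 and 3681 CPM in lateral and medial red, against 2216 and 1691 CPM in CD209/LYVE1 macrophages (0.94, SE 0.10; edgeR adjusted p = 6.65e-07), and CD74 (0.55, SE 0.08; edgeR adjusted p = 2.14e-05). Neither was called without the block, and CD74 was not called by DESeq2. Of 10 chemokines and receptors 3 were higher (CCL8, CXCL9 and CCL5) and 0 lower. CXCL9 had a UMI in only 4 of 272 and 7 of 286 C1Q macrophages of lateral and medial red. In each library 1 cell held 57.1 and 50% of these UMIs. The shares of cells with CXCL9 were 1.47 and 2.45%, against 2.53 and 1.35% of the other barcodes. The calls of CCL8 and CCL5 were lost without the block, and that of CCL5 also under DESeq2. Of 13 NF-κB-driven genes 2, CXCL8 and the survival factor BCL2A1, were higher and 0 lower. Of the lists that were lower, 3 of 8 heat shock genes, 4 of 10 immediate-early genes and 5 of 18 lysosomal genes were lower, and 0, 0 and 1 higher. Of 6 complement genes 2 were lower, CFD and CFP. C4BPA was lower as well, with 12553 and 8967 CPM in lateral and medial red, against 27074 and 23153 CPM in CD209/LYVE1 macrophages (-1.23, SE 0.06; edgeR adjusted p = 2.13e-12). Other named genes that were higher were CPSF6 (2.53), AMPD3 (2.24), SSBP1 (2.19), MT1X (2.05), CPPED1 (1.83), JAML (1.80), CKB (1.70), RNF121, RALA (1.56) and MRPS6 (1.45). TYROBP did not pass the test (-0.05, SE 0.12), nor did GPNMB (-0.41, SE 0.17), APOE (0.15, SE 0.17), HMOX1 (-0.17, SE 0.14), ACP5 (0.09, SE 0.17), COL1A1 (-0.24, SE 0.08) and COL2A1 (-2.21, SE 0.73). CD68 was lower (-0.75, SE 0.13; edgeR adjusted p = 0.000347), a call lost under DESeq2 and without the block.

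**Figure D5:**
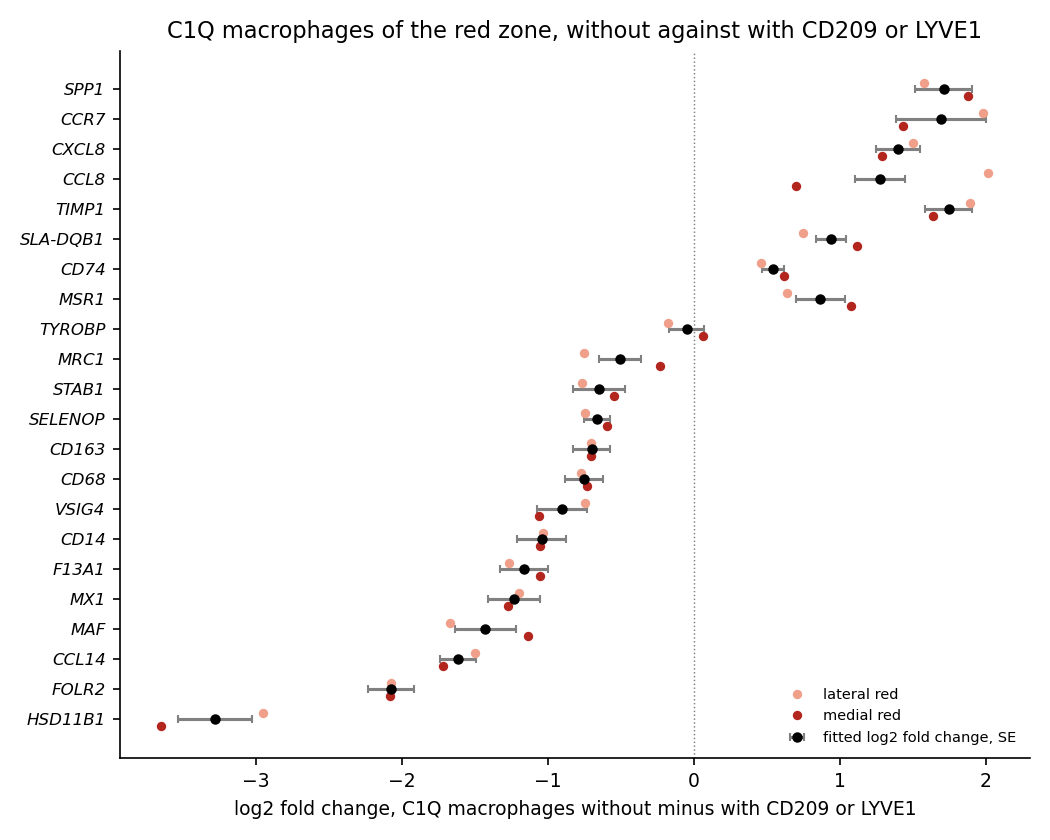
Log2 fold change of 22 genes in the red zone, C1Q macrophages without minus those with CD209 or LYVE1. Black dots give the edgeR estimate with its standard error, and pink and red dots the ratio within the lateral and the medial red library on log2(CPM + 1). SPP1, CCR7 and TIMP1 lie above 1 in both libraries, and FOLR2 and HSD11B1 below -2.

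The comparison of zones and that of kinds share the red zone C1Q macrophages, on opposite sides of the difference. Side by side, the log2 fold change between zones and that between kinds was 3.75 and 1.71 for SPP1, 2.35 and 1.40 for CXCL8, and 1.55 and 1.28 for CCL8. It was -1.66 and 0.94 for SLA-DQB1, -1.20 and 0.55 for CD74, and -2.74 and -0.80 for HSPA6.

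Symbols of near-identical copies are uncertain, since reads of one copy can be counted for another or be discarded. This concerns the chemokines CCL3L1 and CCL4, the HSP70 genes, MT1X and the MHC class II genes. Of 21280 features 14811 had a symbol in the files, 694 were named from a reference table and 5775 were kept by their identifier, and a marker not found by its symbol is not analysed here.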

How the data were processed

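The authors deposited UMI counts per gene and barcode for each library, made with Cell Ranger 6.1.2 against Sscrofa11.1, per the submitters' processing notes. The alignment annotation is not given in the sources used here. Counts were summed per library over the barcodes that met the rule, and over the CD209/LYVE1 macrophages and the other barcodes. Genes of the rule were left out of the tests but kept in library sizes. Summed counts were tested with edgeR 4.0.16 in R 4.3.3 (TMM, filterByExpr, glmQLFit and glmQLFTest), white minus red with the meniscus as term, medial minus lateral with the zone as term, without minus with CD209 or LYVE1 with the library as term, and the interaction of zone and kind of cell. The last had 2 residual degrees of freedom, the others 1. The meniscus and library terms come from the labels. The SE is the log2 fold change over the root of F. The members, the gene lists and the tests were chosen with earlier results of these data known.

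Named genes have a symbol, an adjusted p below 0.05, 1 direction in each pair of libraries, at least 100 CPM where higher and there at least the level of the other barcodes, with the 12 largest fold changes per direction kept. Where under 6 passed, the 5 lowest p per direction are given. A fixed set (among them SPP1, TYROBP, CD68, MRC1, APOE and COL2A1) is given whatever its result, and list genes are those with the lowest p. C4BPA, CXCR4, CCL8 and the per-cell values were singled out after their values were seen. No doublet caller was run. Cells were thinned by drawing 1000 UMIs without replacement. Unthinned cells were clustered with scanpy 1.11.5 (1000 variable genes, 20 components, 15 neighbours, Leiden resolution 0.6). Binomial intervals are exact at 95%, and a count of 0 was read as at most 3. On simulated counts the zone test called 23 of 98 genes changed 2-fold and 69 of 102 changed 4-fold. The meniscus test called 20 of 99 and 76 of 101, and that of kinds 44 of 99 and 89 of 101. The interaction called 1 of 88 and 23 of 112, with a median error of -0.24 in log2 fold change. Unchanged genes called numbered 3, 2, 9 and 1 in these tests. A gene with no call may thus still differ 2-fold. Alternatives were DESeq2 1.42.0, other scalings, no filter, other thresholds, each library left out, and, chosen after seeing the data, cells under 1% matrix UMIs.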

Additional observations from a re-analysis of the deposited data

Results flagged for a closer look

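In a set of genes picked for this check, the zone difference in C1Q macrophages ran against that in the other barcodes for 9. For each, the level was higher in white than in red zone C1Q macrophages and lower in white than in red zone other barcodes, in both menisci, and the edgeR interaction was called. The log2 zone difference in C1Q macrophages minus that in the other barcodes was 5.47 for GPNMB, 5.99 for CXCL8, 3.23 for CCL4, 3.79 for CCL8, 4.62 for CXCL2, 5.75 for CCL3L1, 5.57 for IL1A, 7.56 for TNF and 1.09 for LGALS3. Outside that set ARNT, ACP5, AHRR and ALOX5, also described above, met the same conditions, at 2.11, 3.35, 4.17 and 6.38. Their interaction calls were not followed over the alternatives. The values for CCL3L1, IL1A, TNF and ALOX5 rest on other barcodes with under 2 CPM. The interaction was called for 639 of 11680 genes (5.47%). The other barcodes held 80.4 and 63.5 CPM of the 13 macrophage and monocyte markers in lateral and medial white, against 444 and 358 CPM in lateral and medial red, and the part of this in the differences was not tested. The calls of GPNMB, CXCL8, CCL4, CCL8 and CXCL2 were kept in all 8 alternatives, while those of CCL3L1, IL1A, TNF and LGALS3 were lost in 1, 1, 3 and 4.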

How the results depend on the processing

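Between zones 279 genes were called, against 64 with DESeq2, 141 with library totals (88 higher, 53 lower, against 145 and 134), 176 with no replicate block for the meniscus, 94 with cells thinned, 172 under 1% matrix UMIs and 126 to 230 with 1 library left out. Between menisci 16 were called, against 3 with DESeq2, 1 with library totals, 0 with no replicate block (43 at an unadjusted p below 0.05), 2 thinned, 8 under 1% matrix UMIs and 0 to 5 with 1 library left out (32 and 148 at an unadjusted p below 0.05 where 0 were called). Between kinds 335 were called, against 26 with DESeq2, 185 with its size factors, 192 with library totals and 39 with no replicate block. With cells of both kinds thinned to 1000 UMIs 282 were called, 214 of them among the 335. With at least 2 UMIs of CD209 or LYVE1 in the CD209/LYVE1 macrophages 230 were called, 222 of them among the 335. Under 1% matrix UMIs 428 were called, 306 of them among the 335. For the interaction 639 were called, against 301 with DESeq2 (226 higher, 75 lower), 356 with no replicate block and 245 to 530 with 1 library left out. Library totals called 771, 710 higher and 61 lower, against 295 and 344, as the median of all genes moved to 0.43, against -0.30. For kinds, leaving out a library leaves no residual degree of freedom and gave no value. The share with at least 10 C1Q UMIs was 4.11% in lateral red and 3.44% in medial red.

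Values near 0 changed sign with no call, and the cause was not tested. The zone difference of CD68 was -0.18 with no filter, -0.00705 with no replicate block, -0.11 at 10 C1Q UMIs, -0.00352 thinned, -0.00385 under 1% matrix UMIs, and -0.25 to 0.17 with 1 library left out. TYROBP was 0.0332 thinned and -0.43 to 0.0241 with 1 library left out. APOE was 0.12 thinned and 0.0556 under 1% matrix UMIs. HMOX1 was -0.0660 with no filter and -0.14 to 0.30 with 1 library left out. The meniscus difference of MS4A2 was -1.11 to 4.14 with 1 library left out, and the interaction of SPP1 0.15 with library totals.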
